A study of Mus musculus with 6 samples.

Results

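A set of 10 genes of the Eph and ephrin family that act in crypt positioning were read from RNA sequencing of crypt cells sorted from the small intestine of mice. They were picked by symbol from the deposited count table, and comprise the receptors Ephb2, Ephb3, Ephb4, Epha1, Epha2 and Epha4 and the ligands Efnb1, Efnb2, Efna1 and Efna4. All 10 were among the 23565 genes of the table, and all 10 were kept, with 12439 genes in total, by a filter on low counts.

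Eph receptors are receptor tyrosine kinases, and their ligands, the ephrins, are held on the surface of neighbouring cells. Contact between a receptor-bearing and a ligand-bearing cell signals into both cells and often makes them repel or sort from each other. Ephrin-A ligands are tethered by a lipid anchor, and ephrin-B ligands cross the membrane and signal through their own cytoplasmic tail. In the intestinal crypt of the mouse, EphB2 and EphB3 are known as products of Wnt and TCF target genes that are strongest towards the crypt base, while ephrin-B1 and ephrin-B2 are stronger towards the villus. Mice lacking both receptors lose the placing of Paneth cells at the crypt base.

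Hopx-CreER samples, 3 libraries, were tdTomato-positive cells of HopXCreER::Rosa26LSL-tdTomato mice. Lgr5-CreER samples, also 3, were cells bearing both eGFP and tdTomato, of Lgr5eGFP-IRES-CreER::Rosa26LSL-tdTomato mice. All mice received 1 mg of tamoxifen, which activates the CreER recombinase and so switches on the Rosa26 tdTomato reporter, and crypts were collected 16 hours later from 3 mice per genotype. The labels used here give no age, sex or strain background, and no untreated group. Lgr5 marks crypt base columnar stem cells, and Hopx is used as a marker of cells above the crypt base. What genotype and what gating contributed cannot be told apart. Libraries are numbered here by their order in the table, as names only.

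The libraries totalled 10839306 to 14570555 counts each, and a single count equalled 0.0669 to 0.0928 CPM (counts scaled to a common library size with TMM factors). Hopx-CreER library 3, whose column name alone has an extra tag after the sorting gate, stood apart from libraries 1 and 2 of its group. Its log2 differences to them over genes of at least 10 CPM had an SD of 0.587 and 0.562, and the other same-group pairs had 0.258 to 0.341. The closest pair was Lgr5-CreER libraries 2 and 3, whose column names have a number in common. Their counts differed by more than sampling noise, with a chi-square of 12.5 per gene, which separate preparations of the same mouse could also give. Whether both came from 1 mouse is not stated in the labels, so they were tested as separate libraries and, as an alternative, summed. Nothing ties a library to a mouse, so p-values measure the spread between these libraries. Each library is of bulk RNA, in which fewer cells of a type and less RNA per cell cannot be told apart. RNA of Hopx itself was lower in the libraries labelled Hopx-CreER, at 44.9, 64.2 and 53.7 CPM against 94.3, 87.9 and 87.1 CPM (edgeR adjusted p 0.0131). Epcam, a marker of epithelial cells, was at 2062 to 2420 CPM in the 6 libraries, and the endothelial marker Cdh5 was at 0 in all 6. The 6 epithelial markers listed summed to 11839 to 12643 CPM in Hopx-CreER and 8567 to 8940 CPM in Lgr5-CreER libraries. By edgeR, 2 of them were higher in Hopx-CreER cells, 0 were lower and 4 did not pass.

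The start-site regions of 4 members are shown because Ephb2 and Ephb3 are the family's known Wnt targets, and Efna4 and Epha2 are the members whose region holds a TCF-type match. All 10 members matched the RefSeq promoter table (GRCm38.p6), which gives 250 bases before and 50 after a start site. Each is written 5′ to 3′ on the strand of its gene. Capitals mark TCF-type letters (CTTTG followed by 2 bases that are each A or T) and GC boxes (GGGCGG), each searched on both strands. Ephb2 lies at chr4:136835963-136836262 (minus strand), Ephb3 at chr16:21204545-21204844 (plus strand), Efna4 at chr3:89337979-89338278 (minus strand) and Epha2 at chr4:141300971-141301270 (plus strand).
Ephb2: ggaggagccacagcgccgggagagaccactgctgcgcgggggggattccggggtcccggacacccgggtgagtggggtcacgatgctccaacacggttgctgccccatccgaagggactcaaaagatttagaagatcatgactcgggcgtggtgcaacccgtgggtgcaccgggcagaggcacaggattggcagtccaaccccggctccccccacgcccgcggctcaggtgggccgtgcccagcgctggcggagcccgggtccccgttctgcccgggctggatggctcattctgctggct
Ephb3: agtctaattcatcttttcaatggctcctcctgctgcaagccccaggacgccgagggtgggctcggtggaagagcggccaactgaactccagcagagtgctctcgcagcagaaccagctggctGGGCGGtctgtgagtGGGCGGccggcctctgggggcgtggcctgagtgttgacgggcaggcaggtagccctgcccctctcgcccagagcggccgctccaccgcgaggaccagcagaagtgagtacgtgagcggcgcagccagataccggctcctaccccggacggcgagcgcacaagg
Efna4: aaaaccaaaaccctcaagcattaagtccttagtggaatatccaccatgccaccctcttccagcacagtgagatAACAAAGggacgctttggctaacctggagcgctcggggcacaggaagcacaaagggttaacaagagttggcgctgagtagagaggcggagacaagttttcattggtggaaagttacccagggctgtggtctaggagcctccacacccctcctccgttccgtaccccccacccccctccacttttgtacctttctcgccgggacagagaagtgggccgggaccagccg
Epha2: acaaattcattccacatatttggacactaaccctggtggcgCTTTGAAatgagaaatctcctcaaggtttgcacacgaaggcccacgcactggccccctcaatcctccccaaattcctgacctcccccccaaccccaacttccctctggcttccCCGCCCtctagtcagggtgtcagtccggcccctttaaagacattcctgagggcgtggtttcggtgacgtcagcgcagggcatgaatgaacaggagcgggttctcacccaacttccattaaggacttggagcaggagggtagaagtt

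The Ephb2 and Ephb3 regions held no TCF-type match, and the Ephb3 region held 2 GC boxes. Efna4 held AACAAAG, the reverse complement of CTTTGTT, and Epha2 held CTTTGAA. A TCF-type match was found for 2 of the 10 member genes. By promoter it was in 2 of 11 (18.2%), against 16.9% of all 32851 promoters of the table. A GC box was found for 7 of the 10 genes, in 8 of 11 promoters (72.7%), against 35.7% of all promoters. The GC box is made of G and C alone. The member regions were 54.7% to 72.3% GC, against a median of 52.7% over all promoters. The part of this GC content in the GC box share was not tested. The last 30 bases of the Ephb2 region were not in a GENCODE M21 transcript of that gene, so the start sites of the annotations differ there. These windows are a description of letters near a start site.

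The comparison was between crypt cells labelled by the Hopx allele and by the Lgr5 allele. EphB receptors were lower and ephrin-B1 was higher in Hopx-CreER cells. Ephb3 was 2.01-fold higher in Lgr5-CreER cells, Ephb2 and Ephb4 were each 1.39-fold higher there, and Efnb1 was 1.4-fold higher in Hopx-CreER cells. The A class was split: Epha1 and Epha2 rose in Hopx-CreER cells and Efna4 fell. By the edgeR quasi-likelihood test, adjusted over all 12439 genes, 7 of the 10 members changed. Across all genes tested, 12.8% changed. With the 2 Lgr5-CreER columns of the same number summed, 2 members changed, Ephb3 and Efna4, and the calls of Ephb2, Ephb4, Epha1, Epha2 and Efnb1 ended (edgeR adjusted p 0.0729 to 0.139). These 2 were also the only members called without Hopx-CreER library 1 and without each of the Lgr5-CreER libraries in turn. Of the members, 4 fell in Hopx-CreER cells, where 3.3% of all genes did, and 3 rose, where 9.45% did. The median log2 fold change was -0.01 over the 10 members and -0.03 over all genes tested. The groups did not overlap for 9 of the 10 members, and for 34.9% of all genes tested. Among these 9, 5 were higher in Hopx-CreER cells, against 18.8% of all genes, and 4 were lower, against 16.2%.

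**Figure D1:**
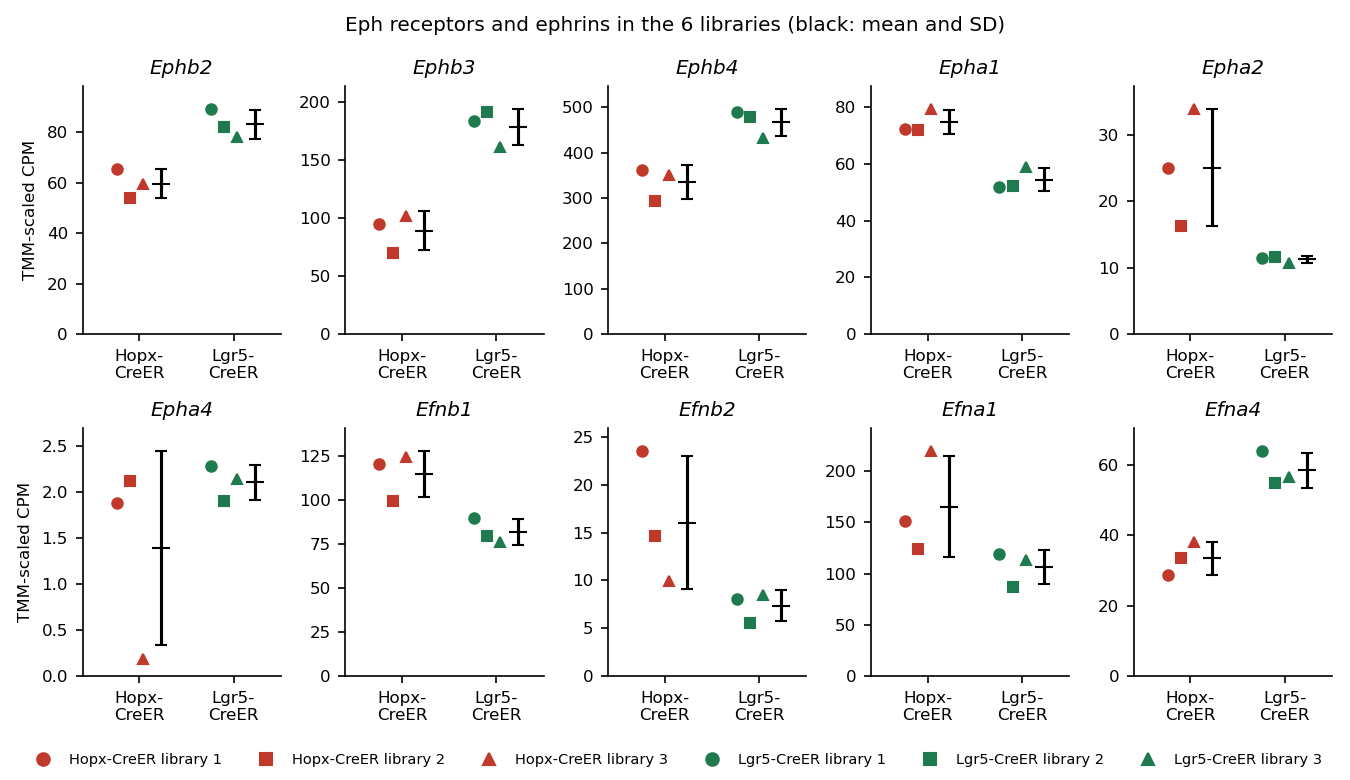
TMM-scaled CPM (y axis, from 0) of each Eph receptor and ephrin in the 3 Hopx-CreER and 3 Lgr5-CreER libraries, with the mean and SD of each group in black. Ephb3 sits between 70 and 101.9 CPM in Hopx-CreER libraries and between 161.3 and 191.2 CPM in Lgr5-CreER libraries, and Epha4 is the only member whose groups overlap.

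Ephb3 encodes a receptor of ephrin-B ligands that stem and Paneth cells at the crypt base carry. It lies on the plus strand of chromosome 16 (21204755 to 21223305, GRCm38). It stood at 95.1, 70 and 101.9 CPM in Hopx-CreER libraries 1, 2 and 3, and at 184.1, 191.2 and 161.3 CPM in Lgr5-CreER libraries 1, 2 and 3. Every Hopx-CreER library was below every Lgr5-CreER library. The group means were 89 ± 16.8 and 178.8 ± 15.7 CPM (SD, n = 3). Ephb3 fell by 1.01 ± 0.15 on the log2 scale (SE, Hopx-CreER over Lgr5-CreER; edgeR adjusted p 0.00378). The call held in all 6 fits that left out 1 library, at edgeR adjusted p of 0.000769 to 0.0239.

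Ephb2, the receptor whose surface level is used to sort crypt cells by position, lies on the minus strand of chromosome 4 (136647539 to 136835988). It stood at 65.5, 53.9 and 59.6 CPM across Hopx-CreER libraries, against 89.5, 82.1 and 78.2 CPM across Lgr5-CreER libraries. The groups did not overlap, though the gap between them was narrower than for Ephb3. Ephb2 fell by 0.48 ± 0.13 on the log2 scale (SE; edgeR adjusted p 0.0376). Its call held without Hopx-CreER library 3 (edgeR adjusted p 0.0336) and ended in the other 5 fits that left out 1 library (0.0527 to 0.135). Each such fit has fewer libraries, and why these calls ended was not tested. The log2 fold change in these 6 fits was -0.54 to -0.41.

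Ephb4, best known as the venous receptor of ephrin-B2, is also made by intestinal epithelium. It lies on the plus strand of chromosome 5 (137350109 to 137378669), and 33 of its 4640 exon bases are shared with Zan on the opposite strand. Ephb4 stood at 361.4, 292.7 and 351 CPM across Hopx-CreER libraries, against 490.8, 478.1 and 433.1 CPM across Lgr5-CreER libraries. No Hopx-CreER library reached the lowest Lgr5-CreER library. Ephb4 fell by 0.48 ± 0.12 on the log2 scale (SE; edgeR adjusted p 0.0261). Its call held without Hopx-CreER library 3 (edgeR adjusted p 0.0171) and ended in the other 5 leave-one-out fits (0.0549 to 0.0992). Endothelial markers were near 0, with a summed level of 1.02 to 4.65 CPM in Hopx-CreER and 0 to 1.31 CPM in Lgr5-CreER libraries over the 3 of 6 that were in the table.

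Markers of crypt base columnar stem cells moved in the same direction as the EphB receptors. All 10 of the 10 markers listed fell in Hopx-CreER cells, and their summed level was 3448 to 5277 CPM there against 10958 to 11415 CPM. Lgr5 itself stood at 52.8, 50.3 and 21 CPM against 103.3, 110.5 and 109.6 CPM. Paneth cell markers went the other way from Ephb3, with 9 of 10 higher in Hopx-CreER cells and a summed level of 14980 to 32584 CPM against 1669 to 3269 CPM. Goblet and enteroendocrine markers were also higher there, with 7 of 8 called in each list. The part of these cell types in the members' values was not tested.

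The 3 EphB receptors did not change by equal amounts. The ratio of Ephb4 to Ephb2, in CPM per kilobase of exon, was 15, 14.7 and 16 in the Hopx-CreER libraries and 14.9, 15.8 and 15.1 in the Lgr5-CreER libraries. These values overlapped and their means were 15.2 ± 0.66 and 15.3 ± 0.49 (SD, n = 3). The ratio of Ephb3 to Ephb2 was 2.76, 2.46 and 3.24 against 3.9, 4.42 and 3.92, without overlap. Ephb3 thus made up 14.8% ± 1.25 of the summed EphB level per kilobase in Hopx-CreER libraries and 20% ± 0.67 in Lgr5-CreER libraries (SD, n = 3), while Ephb4 made up 80% ± 0.97 and 75% ± 0.48. Such ratios within a library do not depend on how libraries are scaled, and no test was made of them.

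Efnb1 encodes ephrin-B1, a ligand that EphB2 and EphB3 bind, and lies on the plus strand of chromosome X (99136130 to 99148991). It stood at 120.5, 99.7 and 124.4 CPM across Hopx-CreER libraries, against 89.9, 79.4 and 76.2 CPM across Lgr5-CreER libraries. The groups were apart, with Hopx-CreER library 2 closest to the Lgr5-CreER range. Efnb1 rose by 0.49 ± 0.13 on the log2 scale (SE; edgeR adjusted p 0.0377). Its call held without Hopx-CreER library 2 (edgeR adjusted p 0.0327) and ended in the other 5 leave-one-out fits (0.058 to 0.15). With offsets for transcript GC content the log2 fold change was 0.22 (edgeR adjusted p 0.244), and with library totals alone it was 0.37 (0.0765), a scaling that moved the median of all genes by -0.11. With upper quartile factors the edgeR adjusted p was 0.0508. Of the 16 alternative fits, 6 called Efnb1.

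Efnb2 encodes ephrin-B2, a ligand of EphB4 and other EphB receptors, and lies on the minus strand of chromosome 8 (8617434 to 8661242). It stood at 23.6, 14.6 and 9.93 CPM across Hopx-CreER libraries, from 313, 173 and 107 counts, and at 8.1, 5.53 and 8.47 CPM across Lgr5-CreER libraries. Hopx-CreER library 1 was the highest and library 3 came close to the Lgr5-CreER range. The log2 fold change was 1.12 ± 0.34 (SE; edgeR adjusted p 0.0644), which did not pass the threshold. It passed without Hopx-CreER library 3, at 1.36 (edgeR adjusted p 0.00812), and in none of the other 5 leave-one-out fits. Tuft cell markers, of which 7 of 8 rose, had a summed level of 1158, 922 and 249.4 CPM in Hopx-CreER libraries 1, 2 and 3. This was the order of Efnb2 there. Crypt base columnar stem cell markers, which fell in Hopx-CreER cells, had the same order, at 5277, 4739 and 3448 CPM. Several of the pathway lists described below had it too. In Lgr5-CreER libraries 1, 2 and 3 the tuft cell sum was 125.7, 191 and 180 CPM. Library 2 was highest there for tuft cell markers and lowest for Efnb2. The part of any of these lists in the Efnb2 values was not tested.

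Set side by side, EphB receptor and ephrin-B ligand RNA moved in opposite directions. Summed over Ephb2, Ephb3 and Ephb4, the receptor level was 97.4, 77.9 and 95.7 CPM per kilobase in the Hopx-CreER libraries and 140.6, 138.4 and 123.8 in the Lgr5-CreER libraries. Summed over Efnb1 and Efnb2, the ligand level was 38.4, 31 and 37.5 CPM per kilobase against 27.2, 23.8 and 23.3. The ratio of receptor to ligand was 2.54, 2.51 and 2.55 in the Hopx-CreER libraries and 5.16, 5.81 and 5.31 in the Lgr5-CreER libraries. The spread within a group was small beside the gap between groups, with means of 2.54 ± 0.02 and 5.43 ± 0.34 (SD, n = 3). Ephb4 made up 80% of the receptor sum in Hopx-CreER and 75% in Lgr5-CreER libraries. Efnb1 made up 93.4% and 95.7% of the ligand sum. The ratio is thus mainly that of Ephb4 to Efnb1, and it does not measure binding between receptors and ligands. Hopx-CreER library 2, lowest in its group for receptors and for ligands alike, was level with the others in the ratio. The log2 difference between groups was -1.1, and -1.13 to -1.05 when 1 library was left out. No test was made of this ratio, since it was formed over chosen genes.

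**Figure D2:**
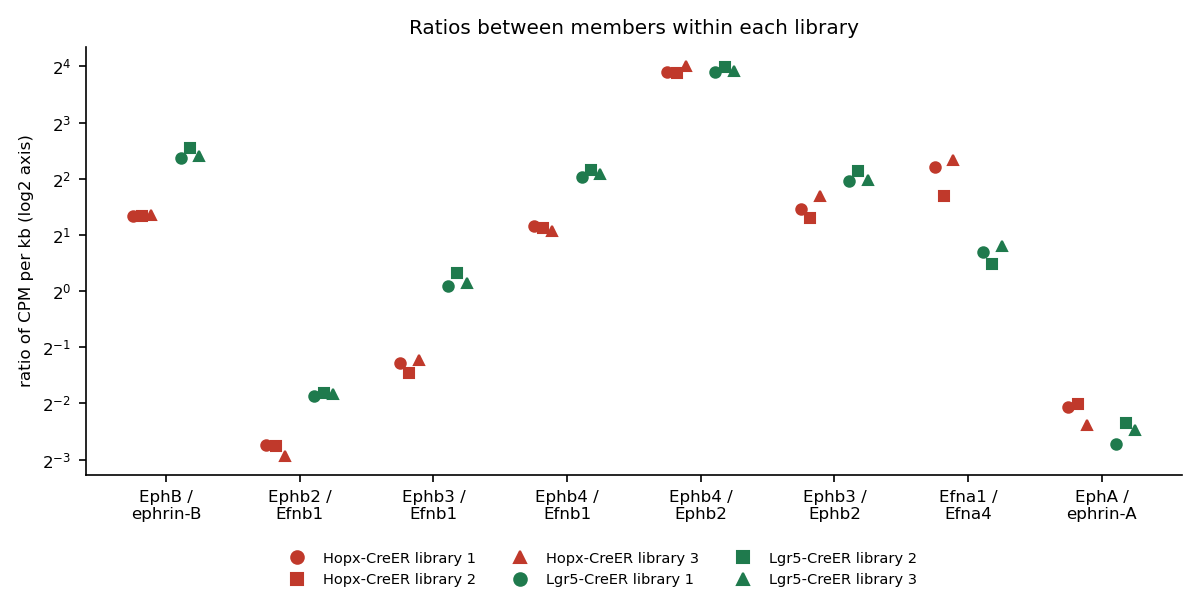
Ratios between members within each library, from CPM per kilobase of exon (y axis, log2 scale), for 3 Hopx-CreER and 3 Lgr5-CreER libraries. EphB sums Ephb2, Ephb3 and Ephb4, and ephrin-B sums Efnb1 and Efnb2; this ratio is 2.51 to 2.55 in Hopx-CreER and 5.16 to 5.81 in Lgr5-CreER libraries, while Ephb4 over Ephb2 overlaps between groups.

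The contrast with Efnb1 held for each receptor singly. Ephb2 over Efnb1 was 0.149, 0.148 and 0.131 in the Hopx-CreER libraries and 0.273, 0.283 and 0.281 in the Lgr5-CreER libraries. Ephb3 over Efnb1 was 0.41, 0.365 and 0.426 against 1.06, 1.25 and 1.1, and so passed from below 1 to above 1. In the fits across all genes, the log2 fold change of Ephb4 less that of Efnb1 was -0.97, and -1.01 to -0.93 over the 16 alternative fits. With GC offsets it was -0.97, although Efnb1 alone was then 0.22. Transcript GC content was 58.4% for Ephb4 and 58.2% for Efnb1, so these offsets nearly cancel in the difference. Scaling of libraries cancels there too, so neither kind of alternative could move this difference much. For Ephb2 (55.3% GC) less Efnb1 it was -0.97 in the first fit and -0.92 with GC offsets.

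Epha1, a receptor of ephrin-A ligands found on many epithelia, lies on the minus strand of chromosome 6 (42358487 to 42373268). It stood at 72.5, 72 and 79.6 CPM across Hopx-CreER libraries, against 51.8, 52.4 and 59.1 CPM across Lgr5-CreER libraries, with no overlap. Epha1 rose by 0.46 ± 0.12 on the log2 scale (SE; edgeR adjusted p 0.0409). The call ended in all 6 fits that left out 1 library (edgeR adjusted p 0.0521 to 0.163), with GC offsets (log2 fold change 0.23, adjusted p 0.207) and with library totals alone (0.34, adjusted p 0.0828). It also ended with upper quartile factors (edgeR adjusted p 0.0562) and with no count filter (0.0752). Of the 16 alternative fits, 4 called Epha1. Of its 3928 exon bases, 236 are shared with Zyx on the opposite strand, and the library kits do not mark strand. Zyx stood at 76.8, 83.3 and 122.1 CPM across Hopx-CreER libraries, against 113, 100.4 and 98.6 CPM across Lgr5-CreER libraries.

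Epha2, a receptor of ephrin-A ligands that epithelia raise on injury and in cancer, lies on the plus strand of chromosome 4 (141301240 to 141329384). It stood at 24.9, 16.3 and 34 CPM across Hopx-CreER libraries, against 11.4, 11.7 and 10.7 CPM across Lgr5-CreER libraries. The Lgr5-CreER libraries lay close together, while the Hopx-CreER libraries were spread and library 3 was highest. Epha2 rose by 1.15 ± 0.27 on the log2 scale (SE; edgeR adjusted p 0.0243), to 25.1 ± 8.82 from 11.3 ± 0.52 CPM (SD, n = 3). The call held without Hopx-CreER library 2 or 3, at log2 fold changes of 1.39 and 0.86, and ended in the other 4 leave-one-out fits (edgeR adjusted p 0.0537 to 0.0963).

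Epha4, a receptor that binds ligands of both classes, was near the limit of these libraries. It had 25, 25 and 2 counts in the Hopx-CreER libraries and 34, 22 and 31 counts in the Lgr5-CreER libraries. Hopx-CreER library 3 was low and the other 2 were within the range of the Lgr5-CreER libraries, at 1.88 and 2.11 against 1.9 to 2.28 CPM. The log2 fold change was -0.58 ± 0.63 (SE; edgeR adjusted p 0.598), and -0.09 (0.922) without Hopx-CreER library 3.

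Efna1 encodes ephrin-A1, the main ligand of EphA2 in epithelia, and lies on the minus strand of chromosome 3 (89271733 to 89281142). It stood at 151.6, 124 and 220 CPM across Hopx-CreER libraries, against 118.6, 87.2 and 113.1 CPM across Lgr5-CreER libraries. The groups did not overlap, but Hopx-CreER library 2 lay just above the highest Lgr5-CreER library. The log2 fold change was 0.63 ± 0.21 (SE; edgeR adjusted p 0.0808), which did not pass. It passed without Hopx-CreER library 2, at 0.80 (edgeR adjusted p 0.0413), and was 0.36 (0.135) without library 3. Enterocyte markers, all 8 of which rose, were also highest in library 3, with a summed level of 2471, 2201 and 4545 CPM in Hopx-CreER libraries 1, 2 and 3 against 1035 to 1306 CPM. Paneth cell markers had the same order, at 15766, 14980 and 32584 CPM. So did epithelial markers, at 12454, 11839 and 12643 CPM, and dividing cell markers, at 1271, 1163 and 1276 CPM. Epha2 and Efna1 were both highest in library 3, and the part of these markers in either gene was not tested.

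Efna4 encodes ephrin-A4, whose gene lies 52.2 kb from Efna1 on the same strand (chromosome 3, 89333390 to 89338028). It stood at 28.6, 33.6 and 37.9 CPM across Hopx-CreER libraries, against 64, 54.7 and 56.6 CPM across Lgr5-CreER libraries. All Lgr5-CreER libraries were above all Hopx-CreER libraries. Efna4 fell by 0.81 ± 0.16 on the log2 scale (SE; edgeR adjusted p 0.00997), from 58.4 ± 4.92 to 33.4 ± 4.66 CPM (SD, n = 3). Its call held in all 6 leave-one-out fits (edgeR adjusted p 0.00167 to 0.0472). An antisense gene shares 168 of its 1599 exon bases and stood at no more than 0.0753 CPM in any library. The ratio of Efna1 to Efna4 per kilobase was 4.63, 3.23 and 5.07 in the Hopx-CreER libraries against 1.62, 1.39 and 1.75 in the Lgr5-CreER libraries, without overlap. Efna3, which lies between these genes and also encodes an ephrin-A ligand, had a log2 fold change of -0.57 ± 0.31 (edgeR adjusted p 0.275).

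**Figure D3:**
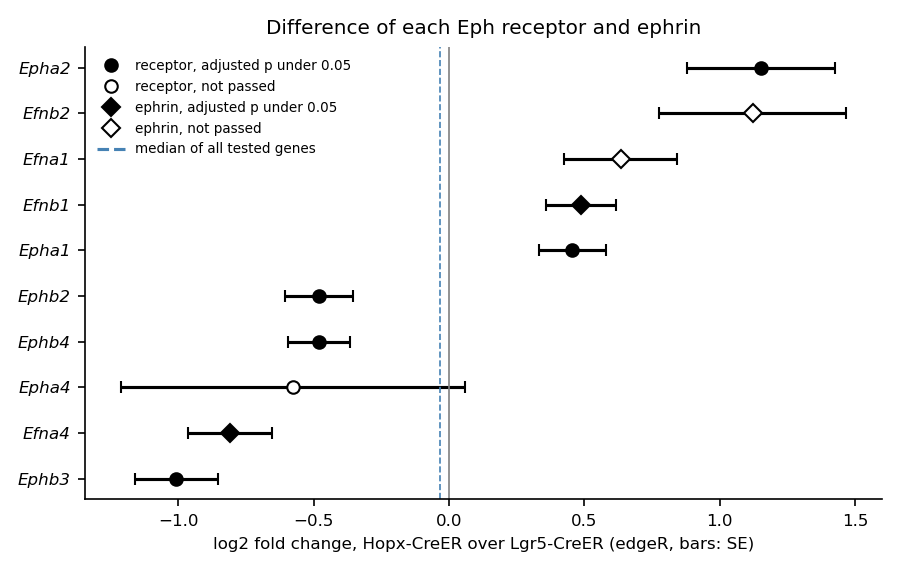
Log2 fold change of each member (positive where higher in Hopx-CreER) with its SE from edgeR (x axis); circles are receptors, diamonds ephrins, and filled symbols passed an adjusted p of 0.05. Ephb3, Efna4, Ephb4 and Ephb2 fell, Epha1, Efnb1 and Epha2 rose, and Epha4, Efna1 and Efnb2 did not pass.

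Per kilobase of exon, the order of the members differed between groups at the top. In Lgr5-CreER cells Ephb4 was the highest, at 100.7 CPM per kilobase, followed by Efna1 at 58.1 and Efna4 at 36.5, and the ranges of these neighbours did not overlap. In Hopx-CreER cells Efna1 was at 90.3 and Ephb4 at 72.2 CPM per kilobase, with overlapping ranges, and Efnb1 followed at 33.3. Ephb3 came next after Efna4 in Lgr5-CreER cells at 26.9 CPM per kilobase, where its range overlapped that of Efnb1 at 23.7. In Hopx-CreER cells it came below Efna4 and Epha1, at 13.4. Epha4 was the lowest in both groups, at 0.173 and 0.261 CPM per kilobase. With the longest transcript as the length, Ephb3 moved above Efna4 in Lgr5-CreER cells and Epha1 above Efna4 in Hopx-CreER cells, while Ephb4 and Efna1 kept their places above all other members in both groups.

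Across single libraries, the members did not deviate as a block. In Hopx-CreER library 2, Ephb2, Ephb3, Ephb4, Epha1, Epha2, Efnb1 and Efna1 each had their lowest value of the group. Hopx-CreER library 3 held the highest value of the group for Ephb3, Epha1, Epha2, Efnb1, Efna1 and Efna4 and the lowest for Epha4 and Efnb2. Lgr5-CreER libraries 2 and 3, whose columns share a number, were 82.1 and 78.2 CPM for Ephb2 and 191.2 and 161.3 CPM for Ephb3.

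**Figure D4:**
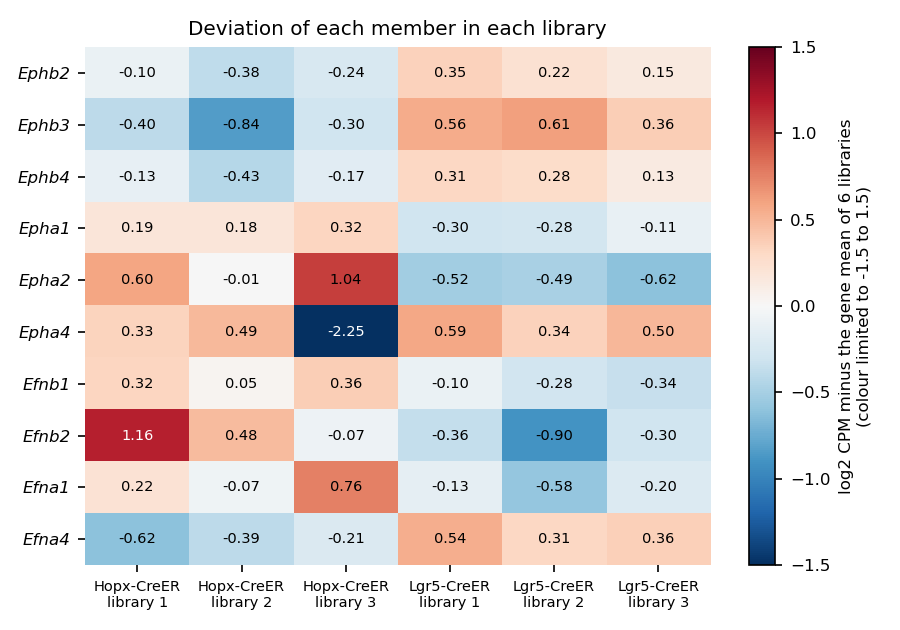
Deviation of log2 CPM from the mean of the 6 libraries (colour and printed value) for each member (rows) in each library (columns). The EphB receptors and Efna4 are negative in all 3 Hopx-CreER libraries and positive in all 3 Lgr5-CreER libraries, and Epha4 in Hopx-CreER library 3 is -2.25, from 2 counts.

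The other members of the family were at low levels. Of 12 listed, 7 were in the table and 2 passed the filter on low counts, Ephb6 and Efna3, neither of which changed. By edgeR, 0 of these 2 passed at an adjusted p or at an unadjusted p of 0.05, and DESeq2 and limma-voom called 0. Ephb6, a receptor without kinase activity, stood at 3.99, 0.169 and 1.76 CPM across Hopx-CreER libraries, against 1.14, 1.12 and 1.31 CPM across Lgr5-CreER libraries. Efna3 stood at 4.6, 3.72 and 5.57 CPM against 8.84, 6.05 and 5.71 CPM, groups that did not overlap. Epha7, Efna2 and Efnb3 were at no more than 0.979 CPM in any library, Epha10 had 1 count in all, and Epha3 had 0.

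Among genes that carry signals inward from Eph receptors, Vav3 and Fyn fell. Of 32 tested genes of this list (35 listed), 2 fell, 0 rose and 30 did not pass, where 3.3% of all genes fell and 9.45% rose. The median log2 fold change of the list was -0.22. Both that fell act close to the receptor, as do others of the list that did not pass. Vav3, a signalling protein that activated Eph receptors recruit, stood at 10, 9.47 and 4.73 CPM across Hopx-CreER libraries against 26.9, 30.5 and 26.8 CPM, and fell by 1.79 ± 0.29 on the log2 scale (SE; edgeR adjusted p 0.00455). Fyn, a Src-family kinase, stood at 5.35, 8.37 and 5.19 CPM against 15.9, 20.5 and 18 CPM, and fell by 1.52 ± 0.27 (edgeR adjusted p 0.00692). Both calls held in all 16 alternative fits. DESeq2 called 5 genes of this list, 8 passed with GC offsets, and 4 passed without Hopx-CreER library 3.

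Of 13 tested genes of ephrin shedding and reverse signalling (14 listed), 1 rose, 0 fell and 12 did not pass. Of all genes tested, 9.45% rose and 3.3% fell. The median log2 fold change of the list was 0.24. The gene that rose was Rhbdl2, a rhomboid protease known from cultured cells to cut ephrin-B3. It stood at 10.9, 13.6 and 9.93 CPM across Hopx-CreER libraries against 0.87, 3.54 and 5.16 CPM, and rose by 1.85 ± 0.52 on the log2 scale (SE; edgeR adjusted p 0.0468). Leaving out Hopx-CreER library 1, Hopx-CreER library 2 or Lgr5-CreER library 2 ended this call (edgeR adjusted p 0.0751 to 0.131). With library totals alone its edgeR adjusted p was 0.0642, and with the same-numbered columns summed it was 0.09. Adam10, the protease that cuts ephrins after they bind, stood at 27.5, 19.7 and 6.59 CPM against 19.1, 32.7 and 28.4 CPM, groups that overlapped, and did not pass (edgeR adjusted p 0.436). Of the cadherin complex, 0 of 6 genes changed by edgeR, DESeq2 or limma-voom, and 2 had an unadjusted p under 0.05. Cdh1, which encodes E-cadherin, stood at 1579, 1310 and 1112 CPM against 1764, 1690 and 1539 CPM, groups that overlapped (edgeR adjusted p 0.178). The complex had 2 called genes with GC offsets, 1 with library totals alone and 1 without Hopx-CreER library 3.

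Wnt targets and TCF factors moved in the direction of Ephb2 and Ephb3. Of 15 tested genes (17 listed), 9 fell, 0 rose and 6 did not pass, with a median log2 fold change of -0.80. The list shares Lgr5, Ascl2, Axin2 and Tnfrsf19 with the stem cell markers above, and the sort selected cells on the Lgr5 allele. Rnf43, a ubiquitin ligase that removes Wnt receptors and lies outside those markers, stood at 152.8, 138.2 and 116.7 CPM against 266.3, 235.4 and 208.7 CPM. It fell by 0.80 ± 0.14 on the log2 scale (SE; edgeR adjusted p 0.00592), an amount between those of Ephb2 and Ephb3. The fall was 1.81 ± 0.14 for Tnfrsf19 (edgeR adjusted p 0.000374), 1.34 ± 0.23 for Axin2 (0.00627) and 1.09 ± 0.15 for Ascl2 (0.00239). The calls of these 4 genes held in all 16 alternative fits. The list had 5 calls when Lgr5-CreER library 2 or 3 was left out.

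**Figure D5:**
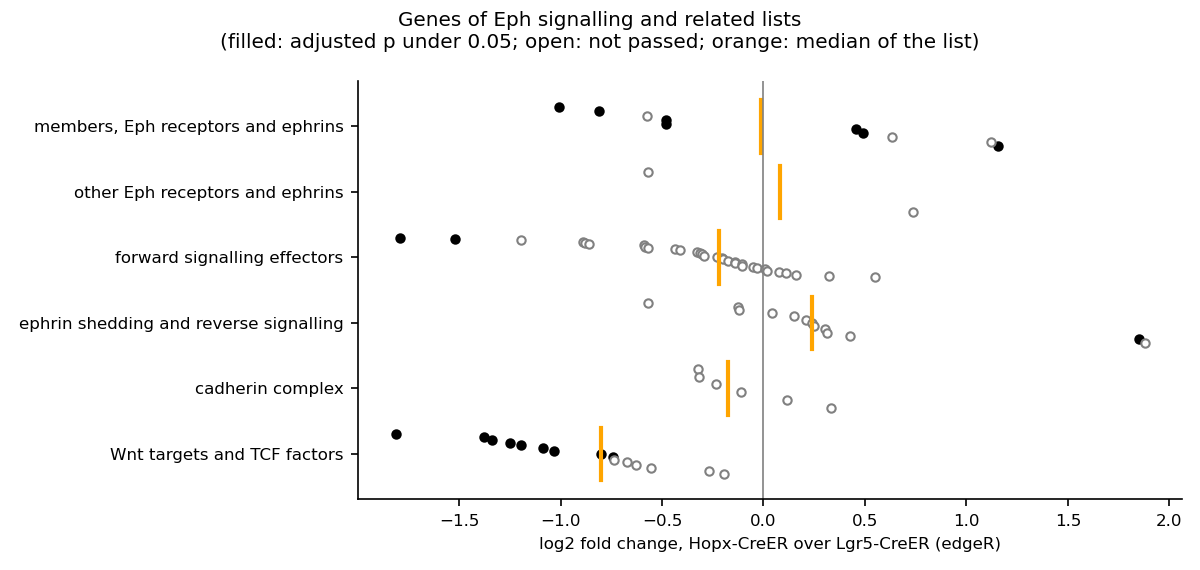
EdgeR log2 fold change (x axis, positive where higher in Hopx-CreER) of each tested gene in 6 lists (rows); filled points passed an adjusted p of 0.05 and the orange bar is the median of the list. The members lie on both sides of 0, and the Wnt targets and TCF factors lie below 0 with a median of -0.80.

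Genes nearest in pattern to 4 members were taken among 7978 genes of at least 10 CPM, by the root mean square difference of log2 CPM centred on each gene over the 6 libraries. The nearest to Ephb2 were Pom121, a nuclear pore protein, Timeless, a replication fork protein, and Nat10, an RNA acetyltransferase, at differences of 0.0226, 0.0549 and 0.0561, against a median of 0.336 over the candidates. The nearest to Ephb3 were Man2a2, Ptpro and Rgs12 at 0.105, 0.118 and 0.118 (median 0.578). The nearest to Efnb1 were Camta2, Slc4a2 and Ogdh at 0.0346, 0.0445 and 0.0455 (median 0.349). The nearest to Efnb2 were Slc26a3, a chloride and bicarbonate exchanger of enterocytes, Scnn1a, a sodium channel subunit, and Mylk at 0.11, 0.204 and 0.217 (median 0.696). With 6 libraries in 2 groups, many genes share such a pattern, and these distances are a description.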

How the data were processed

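RNA was sequenced from 6 libraries of sorted crypt cells, 3 per group. Per the labels' protocols, cells were sorted into TRIzol LS, and libraries were made with SMART-Seq v4 and Nextera XT kits, which do not mark strand. What the authors deposited is a table of unnormalized counts by Ensembl mouse gene. The submitters' processing notes name kallisto, edgeR and GRCh38 without role or version. The identifiers are of mouse, whereas GRCh38 is the human genome. The counter, its strand setting and the annotation release are not given in the sources used here. Columns name the sorting gate and no replicate number. The column of Hopx-CreER library 3 also has a tag after the gate, which no other column has and which its name does not explain.

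Versions were stripped from the identifiers, and symbols and positions came from GENCODE M21 (GRCm38), which matched 23479 of 23565 genes. Counts were tested in edgeR 4.0.16 (R 4.3.3; TMM factors, default filterByExpr, quasi-likelihood F-test, Benjamini-Hochberg adjustment over 12439 genes, threshold 0.05). The SE was taken from the F statistic, and the biological coefficient of variation was 22.5%. CPM used TMM-scaled library sizes, and levels per kilobase used the union of exons. Reads were amplified and carry no molecular identifiers. The spread between libraries exceeded counting error, and its source was not tested. The alternatives comprised DESeq2 1.42.0 and limma-voom (limma 3.58.1), scaling by RLE, by upper quartile or by library totals alone, no count filter, at least 1 CPM in 3 libraries, GC offsets (spline with 5 degrees of freedom), leaving out each library, and summing the columns that share a number. The last of these with Hopx-CreER library 3 also left out was added after the data were seen. The test was checked on simulated data.

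Members, lists, tests and alternatives were chosen with earlier results of these data known. Named genes are the members, up to 4 called genes of smallest adjusted p from each of 4 further lists, and the 3 genes nearest in pattern to Ephb2, Ephb3, Efnb1 and Efnb2 (log2 CPM with a prior count of 2, without predicted genes and members). Zyx, Adam10, Cdh1, Ephb6 and Efna3 and the markers are named outside this rule, after their values were seen.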

Additional observations from a re-analysis of the deposited data

How the results depend on the processing

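All 10 members kept their direction in all 16 alternative fits. Of these 160 values, 41 lost a call and 7 gained one. Ephb3 and Efna4 kept their calls in every fit, and Epha4 passed in none. Summing the same-numbered columns left 2 changed members (2 lower, 0 higher), both among the 7 of the first fit. With Hopx-CreER library 3 also left out, 4 members changed: Ephb3, Ephb4 and Efna4, lower, and 1 higher, Efnb2, which had not passed in the first fit. The number of members that rose, 3 in the first fit, was 1 with library totals alone, 1 with upper quartile factors, 1 with GC offsets and 5 with DESeq2. Leaving out 1 library gave 2 to 6 changed members, 0 to 3 higher and 2 to 4 lower, and the low of 2 was reached without Hopx-CreER library 1 and without each Lgr5-CreER library.

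Over all genes, 1586 changed (1176 higher, 410 lower). The columns summed gave 790 (659 higher, 131 lower). Lower genes numbered 729 with library totals alone, 694 with DESeq2 and 1037 with GC offsets, and calls on the Hopx-CreER side made up 74.1% at first, 56.3% under library totals and 50.2% under GC offsets. Leaving out 1 library gave 723 to 1868 changed genes, 606 to 1275 higher and 117 to 593 lower. The pathway lists held 12 changed genes, 23 with GC offsets, 7 with the columns summed, and 7 to 15 with 1 library left out. Some of these fits have fewer libraries, and the cause of the differences was not tested. The log2 difference of the EphB to ephrin-B ratio was -1.15 on CPM and -1.1 per kilobase.

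No paired analysis was possible because the columns carry no replicate numbers from the labels. Depth limits Epha4, at 2 to 34 counts per library.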
